A study of Mus musculus with 55 samples.

Results

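The tumor necrosis factor (TNF) superfamily was followed in the mouse optic nerve head (ONH), the region where the axons of retinal ganglion cells leave the eye, after a crush of the optic nerve. Its members were taken by name: Tnf and every gene whose symbol begins with Tnfsf (ligands) or Tnfrsf (receptors) followed by a digit, where a probe set of the array annotation names that gene alone. This gave 27 genes, 8 ligands and 19 receptors, among 12393 genes on the array. They have 41 probe sets, and a gene with several was represented by the brightest. A pair of probe sets that name Tnfsf12 or Tnfsf13 together with other genes were left out.

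Messenger RNA was measured in crushed ONHs, in contralateral ONHs of the same mice and in ONHs of naive mice without surgery. All were female C57Bl/6 mice, 6 to 8 weeks old at surgery. The left optic nerve was crushed for 10 seconds 1 mm behind the eye and the right eye was left alone as the contralateral control, and tissue was taken after 1 or 3 days, 1 or 3 weeks, or 3 months. Each of the 11 conditions had 5 samples, each a pool of 2 ONHs, and the left and right eyes of the same mice form a pair of samples. Samples of a time with the same replicate number were taken as a pair.

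Ligands of the TNF superfamily are trimeric proteins, mostly made as membrane proteins, that act on neighbouring cells or are cut off and act at a distance. Their receptors gather adaptor proteins inside the cell and switch on NF-kB and MAP kinases, and those with a death domain can also start apoptosis or necroptosis. Some receptors lack a working signalling tail or a membrane anchor and act as decoys, and in injured nervous tissue microglia, infiltrating leukocytes and astrocytes are known to use the family.

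The samples are labelled as ONH, and the labels name no cell type. None of the 10 astrocyte markers and 8 oligodendrocyte markers on the array lay at or under an intensity of 20 on every array of a condition. The same held for the markers of photoreceptors, endothelium, meningeal fibroblasts and T and NK cells, so that this does not show which cells the tissue held. The summed level of the 12 photoreceptor markers varied strongly within a condition (intensity 670 to 58980 in crushed ONHs at 1 day and 1181 to 12920 in contralateral ONHs at 1 day). Of these 12 (10 tested at 3 months), 0 were called at any time, also at an unadjusted p under 0.05 in limma. Their median log2 fold change was 1.59 at 1 day, 0.99 at 3 days and -0.41 at 1 week. It was 0.45 at 3 weeks and -2.04 at 3 months. With so wide a spread, the lack of calls does not show equal levels in crushed and contralateral ONHs. The arrays of the naive group and of 1 day to 3 weeks form a first batch and those of 3 months a second. The median intensity of an array was 459 to 554 in the first batch, and 494 to 598 for 3 months, and arrays of a condition correlated across probe sets with a median of 0.967 to 0.991. In such whole-tissue samples, fewer cells of a type and less RNA per cell cannot be told apart.

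Members were called at each of the first 4 times, with the highest number at 1 day. Intensities under 20 were set to 20, and fold changes compare crushed with contralateral ONHs on the log2 scale, each with its standard error from limma (SE, n = 5 pairs). Members were called, that is said to rise or fall, where the change was 2-fold or more and its adjusted p was under 0.05. Of the 24 members tested, 8 rose at 1 day, against 7.02% of all probe sets tested, and 2 fell, against 7.44%. Members are counted by their brightest probe set over all arrays, crushed ones included. The shares of all also count dimmer probe sets of the same gene, so that the units differ. At 3 days 7 rose (6.6% of all) and 1 fell (2.2%), and at 1 week 6 rose (6.21%) and 0 fell (3.53%), with 1 member lower at an unadjusted p under 0.05 in limma. At 3 weeks 4 rose (2.36%) and 1 fell (1.75%). The median log2 fold change of the tested members was 0.69 at 1 day, against -0.03 over all probe sets, and 0.40 at 3 days, 0.29 at 1 week and 0.25 at 3 weeks, against 0.04, 0.02 and -0.003. These counts leave out Tnfrsf4, Tnfrsf8 and Tnfrsf25, which were too dim to test, and Tnfsf14 and Tnfrsf23 passed the brightness filter only through crushed arrays.

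**Figure D1:**
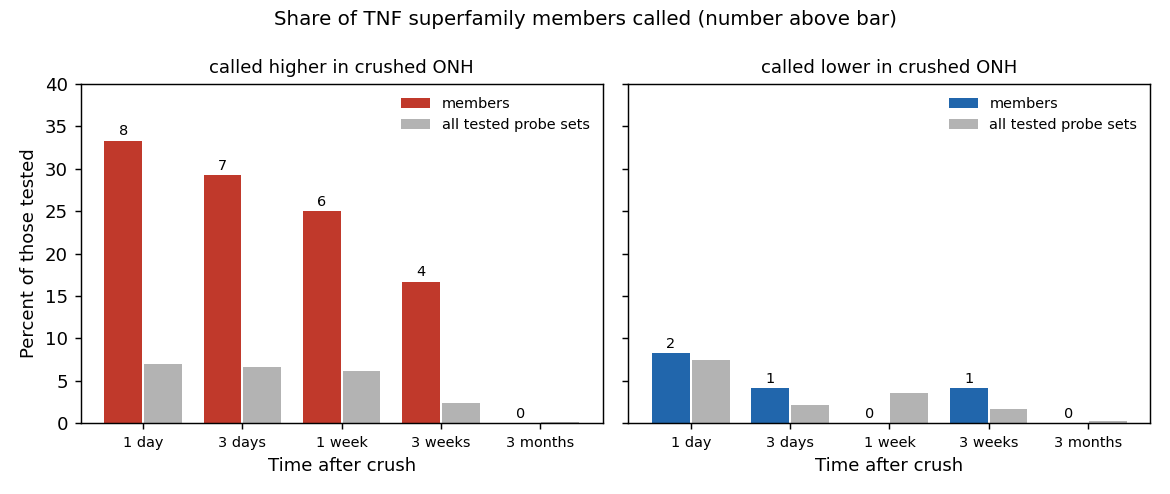
Percent of the tested TNF superfamily members (coloured bars, with their number above) and of all tested probe sets (grey bars) called higher (left) or lower (right) in crushed than in contralateral ONHs, by time after crush. The members' share of rises is 33.3% at 1 day and 16.7% at 3 weeks, and 0 members were called at 3 months.

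In all, 18 members were called at 1 or more of the first 4 times. Of these 14 were called only upwards and 4 only downwards, and 0 in both directions. The largest called rise fell at 1 day for 8 members, at 1 week for 4 and at 3 weeks for 2. Tnfrsf11a, Tnfrsf22 and Tnfrsf23 were called at 3 times, 5 members at 2 times and 10 at 1 time.

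**Figure D2:**
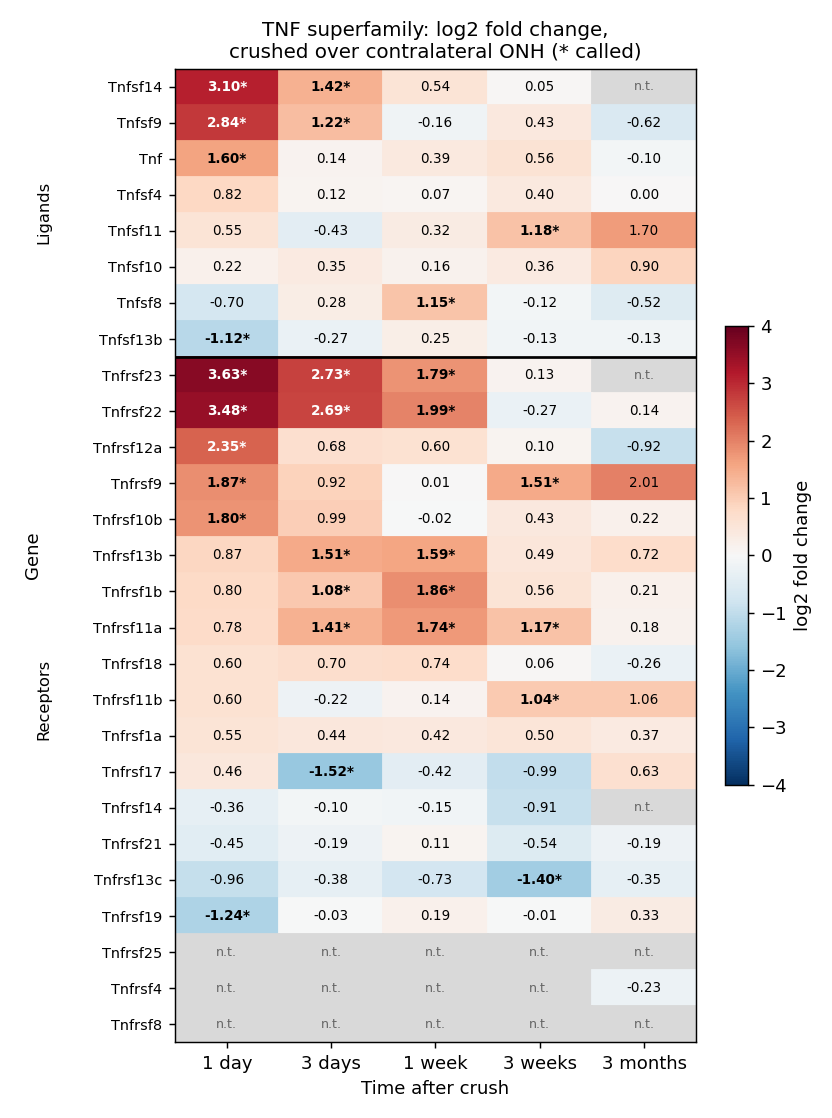
Log2 fold change of each member in crushed over contralateral ONHs (colour and number) by time after crush, ligands above the line and receptors under it. An asterisk marks a called change and n.t. a member too dim to be tested, and the column of 3 months comes from the second batch.

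Among the ligands, 3 of 8 rose at 1 day. Tnfsf14, also named LIGHT, binds the receptor HVEM (Tnfrsf14) and the lymphotoxin beta receptor. It had intensities of 118, 302, 226, 76.8 and 240 in crushed ONHs at 1 day, against 15.5, 17.7, 17.0, 10.98 and 12.1 in contralateral ONHs. Every crushed sample was far above every contralateral sample, all of which lay under the floor of 20. With those set to 20 the log2 fold change was 3.10 (SE 0.28, adjusted p 1.29e-08), and it was 1.78 with a floor of 50 and 3.71 as a ratio of linear means without a floor. At 3 days it still rose by 1.42 (SE 0.28), with crushed intensities of 30.1 to 139 against 4.36 to 22.9 in contralateral ONHs. A floor of 50 left 0.36 at 3 days (adjusted p 0.20), which ends that call. By 3 weeks 4 of the 5 crushed samples were themselves under 20.

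Tnfsf9 is a membrane ligand of antigen-presenting cells that costimulates T cells through Tnfrsf9. Its intensities were 751, 811, 897, 954 and 1239 in crushed ONHs at 1 day, and 139, 127, 141, 104 and 134 in contralateral ONHs. The groups did not overlap, and the rise was 7.16-fold (log2 2.84, SE 0.23, adjusted p 4.66e-09). It rose by 1.22 (SE 0.23) at 3 days, and at 1 week the groups overlapped (log2 -0.16, SE 0.23).

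Tnf itself, the founding cytokine of the family, was dim but separate at 1 day. Crushed ONHs had 127, 127, 151, 125 and 127, against 52.4, 40.3, 44.8, 43.8 and 35.6 in contralateral ONHs. Every crushed sample was above every contralateral one, a 3.04-fold rise (log2 1.60, SE 0.26, adjusted p 2.91e-05). At 3 days the groups overlapped, with a mean of 74.0 ± 24.2 in crushed and 64.7 ± 12.1 in contralateral ONHs (SD, n = 5 each).

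The promoters of the early risers are shown as the 250 bases before the annotated start (RefSeq, GRCm38.p6), since these genes rose together at 1 day. A window was in the table for 22 of the 27 members, and for 5 of the 8 that rose at 1 day. Windows were searched on both strands for the AP-1 sequence TGANTCA, for the NF-kB consensus and for TATAAA. Of 32851 windows of all genes, 6.75% hold the AP-1 sequence, 3.9% the NF-kB consensus and 12.4% TATAAA. The 4 windows of early risers with a match follow, 5′ to 3′ on the strand of the gene, with the matches in capitals. In Tnf (chr17:35202008-35202257, minus strand) the capitals are TATAAA at -29, and in Tnfrsf23 (chr7:143685876-143686125, minus strand) the same sequence on the other strand at -158. In Tnfsf14 (chr17:57194182-57194431, minus strand) they are the AP-1 sequence at -160. Tnfrsf9 (chr4:150927749-150927998, plus strand, the inner of 2 annotated starts) holds a pair of overlapping NF-kB matches, joined in 1 run of capitals, and the AP-1 sequence at -15.
Tnf: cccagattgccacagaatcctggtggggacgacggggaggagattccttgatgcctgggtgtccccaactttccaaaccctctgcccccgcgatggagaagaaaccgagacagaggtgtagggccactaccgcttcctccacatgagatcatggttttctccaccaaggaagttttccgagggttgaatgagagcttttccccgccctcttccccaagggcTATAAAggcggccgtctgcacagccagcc
Tnfsf14: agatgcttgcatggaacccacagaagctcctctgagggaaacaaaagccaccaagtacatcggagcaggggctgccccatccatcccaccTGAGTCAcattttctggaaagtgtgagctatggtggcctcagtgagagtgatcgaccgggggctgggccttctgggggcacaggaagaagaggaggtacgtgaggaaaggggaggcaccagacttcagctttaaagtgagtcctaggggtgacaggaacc
Tnfrsf9: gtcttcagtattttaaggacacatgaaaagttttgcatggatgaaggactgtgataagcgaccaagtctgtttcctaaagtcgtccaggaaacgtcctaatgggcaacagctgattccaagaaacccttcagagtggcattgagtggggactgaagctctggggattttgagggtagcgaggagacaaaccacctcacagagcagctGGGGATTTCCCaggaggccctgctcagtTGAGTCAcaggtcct
Tnfrsf23: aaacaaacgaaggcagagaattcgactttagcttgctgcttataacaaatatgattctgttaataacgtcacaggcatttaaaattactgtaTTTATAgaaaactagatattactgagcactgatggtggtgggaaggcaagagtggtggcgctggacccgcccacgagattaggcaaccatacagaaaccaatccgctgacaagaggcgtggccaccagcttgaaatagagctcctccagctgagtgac

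Over all members with a window, the AP-1 sequence was found in 4 (Tnfsf14, Tnfrsf9, Tnfsf13b and Tnfrsf8), the NF-kB consensus in 2 (Tnfrsf9 and Tnfrsf8) and TATAAA in 4 (Tnf, Tnfsf11, Tnfrsf17 and Tnfrsf23). Tnfsf13b fell at 1 day and Tnfrsf8 was not tested, so that the matches were not limited to early risers. Tnfrsf12a and the outer start of Tnfrsf9 had no match to the 3 sequences in these windows. Tnfsf9, Tnfsf4, Tnfrsf22, Tnfrsf11b and Tnfrsf10b were not searched.

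**Figure D3:**
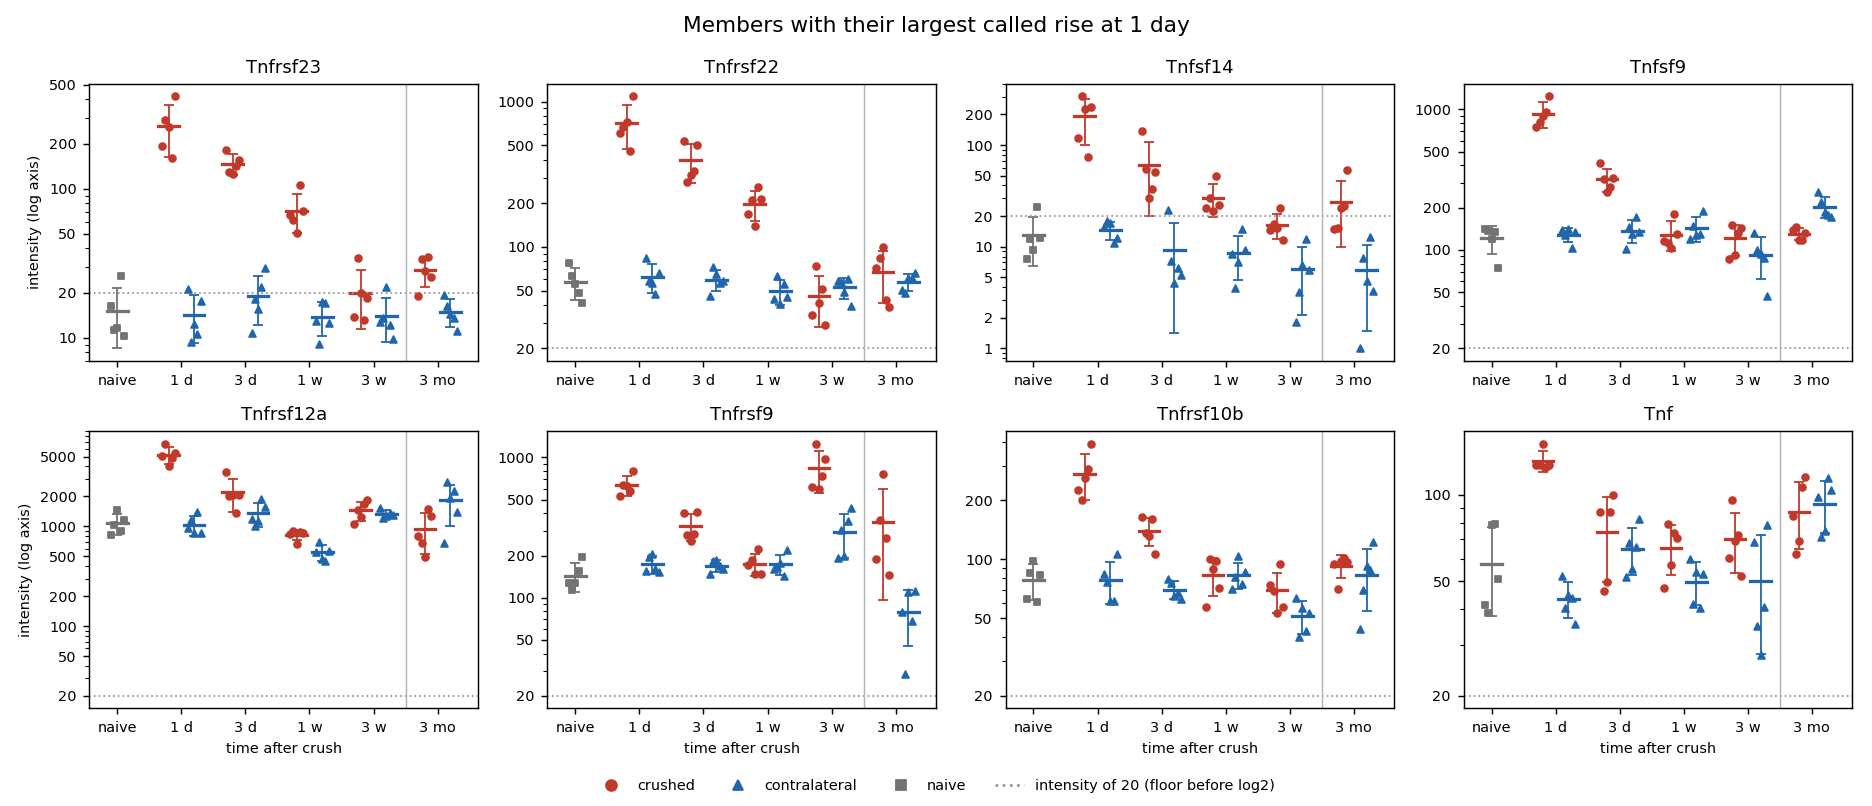
Intensity (log axis) of the 8 members whose largest called rise was at 1 day, in naive ONHs and in crushed and contralateral ONHs by time after crush. Points are samples, bars are mean ± SD (n = 5; no lower bar where it would pass under 1), the dotted line is the floor of 20 and the vertical line separates the second batch; at 1 day every crushed sample is above every contralateral sample in all 8.

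Other ligands were first called at a later time, which does not by itself show that they moved later. Among the differences between times tested below, Tnfsf11 was called in none and Tnfsf8 only in that from 1 week to 3 weeks. Tnfsf8, the ligand of the lymphocyte receptor Tnfrsf8, rose at 1 week with 168, 146, 106, 167 and 153 in crushed ONHs, against 56.4, 65.3, 66.6, 45.3 and 113 in contralateral ONHs. A single contralateral sample reached above the lowest crushed one, and the rise was 2.21-fold (log2 1.15, SE 0.22, adjusted p 2.77e-04). Without the pairs of replicate 4 it was 0.96, under the 2-fold limit, and after quantile normalization 0.99.

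Tnfsf11, or RANKL, which drives osteoclast formation and also acts on immune cells, rose at 3 weeks. It had 177, 278, 39.2, 48.0 and 214 in crushed ONHs, and 116, 40.4, 30.7, 42.8 and 54.8 in contralateral ONHs. In crushed ONHs 3 samples were high and 2 lay within the contralateral range, and the log2 fold change of 1.18 (SE 0.36) was close to the limit (adjusted p 0.024). The call was lost without replicate 2 (0.77, adjusted p 0.18), without replicate 5 (0.98, adjusted p 0.12) and without the pairing of eyes (1.18, adjusted p 0.056).

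Tnfsf13b, or BAFF, a survival factor of B cells, was the only ligand that fell. Crushed ONHs had 135, 101, 139, 114 and 205 at 1 day, against 246, 292, 325, 273 and 345 in contralateral ONHs. The groups did not overlap (log2 -1.12, SE 0.20, adjusted p 7.49e-05). At 3 days the groups overlapped (log2 -0.27, SE 0.20). Tnfsf10 (TRAIL), which triggers death receptors, and Tnfsf4, the OX40 ligand of T cell costimulation, were not called at any time. Their fold changes of largest size were 0.90 (SE 0.22, adjusted p 0.14) at 3 months and 0.82 (SE 0.36, adjusted p 0.061) at 1 day. Without replicate 1, Tnfsf4 passed at 1 day with 1.17 (adjusted p 0.015).

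Of the receptors of TRAIL, 3 rose at 1 day. Tnfrsf23 and Tnfrsf22 are mouse decoy receptors of TRAIL that lie beside each other on chromosome 7. Tnfrsf23 had 193, 292, 259, 162 and 418 in crushed ONHs at 1 day, against 21.4, 9.34, 12.4, 10.6 and 17.7 in contralateral ONHs. The groups were far apart, and 4 of the 5 contralateral samples lay under 20. The log2 fold change was 3.63 with those set to 20 (SE 0.20, adjusted p 3.66e-11), 2.33 with a floor of 50 and 4.21 as a ratio of linear means without a floor, so that its size depends on the floor.

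Tnfrsf22 had 607, 669, 722, 456 and 1092 in crushed ONHs at 1 day, and 83.7, 57.9, 56.0, 47.2 and 65.5 in contralateral ONHs. It too showed no overlap (11.2-fold, log2 3.48, SE 0.21, adjusted p 8.64e-11). This probe set is the brightest over all arrays (mean 159, against 154.5 for the next) only with its high crushed values counted. In contralateral ONHs at 1 day the next probe set was brighter (113 against 62.1), and it gave a 2.57-fold rise (log2 1.36, SE 0.18, adjusted p 2.17e-06). Both stayed raised at 3 days, by 2.74 (SE 0.20) for Tnfrsf23 and 2.69 (SE 0.21) for Tnfrsf22, and at 1 week, by 1.79 (SE 0.20) and 1.99 (SE 0.21). At 3 weeks neither was called (0.13 and -0.27). With a floor of 50, Tnfrsf23 had 0.47 at 1 week, under the limit. The third probe set of Tnfrsf22 rose by 1.87 (SE 0.17) at 1 day. At 3 days it was called (1.17, SE 0.17) and the second was not (0.51, SE 0.18), and at 1 week neither was (0.77 and 0.30), so that the probe sets disagree in size at each of these times. The annotation assigns each probe set to 1 of these related genes, and whether it also detects the other was not tested.

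Tnfrsf10b, the TRAIL receptor that carries a death domain, rose less. It had 226, 201, 262, 289 and 390 in crushed ONHs at 1 day, against 84.3, 76.4, 61.4, 61.3 and 106 in contralateral ONHs. The groups did not overlap (3.49-fold, log2 1.805, SE 0.18, adjusted p 5.15e-08), and at 3 days the difference of 0.99 (SE 0.18) was just under the 2-fold limit. Its second probe set rose at 1 day by 1.10 (SE 0.24). The ligand Tnfsf10 had 0.22 (SE 0.23) at 1 day.

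Tnfrsf12a (Fn14), the receptor of TWEAK and a gene known to be induced by growth factors and injury, had 5117, 6763, 4065, 4897 and 5511 in crushed ONHs at 1 day. Contralateral ONHs had 961, 1149, 854, 1398 and 851. The lowest crushed sample was far above the highest contralateral one (5.08-fold, log2 2.35, SE 0.20, adjusted p 6.05e-09). At 3 days and 1 week it had 0.68 (SE 0.20) and 0.60 (SE 0.20), which passed the adjusted p but not the 2-fold limit. At 1 week the mean was 830 in crushed and 551 in contralateral ONHs, against 1075 in naive ONHs. The crushed mean was thus higher than the contralateral mean at 1 week and lower than the naive mean. Its second probe set gave 2.32 (SE 0.20) at 1 day.

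Tnfrsf9, the costimulatory receptor that binds Tnfsf9, rose at separate times. At 1 day it had 529, 642, 629, 580 and 804 in crushed ONHs, against 154, 196, 206, 160 and 152 in contralateral ONHs. The groups did not overlap (3.66-fold, log2 1.87, SE 0.18, adjusted p 3.38e-08). At 1 week they did (0.01, SE 0.18). At 3 weeks crushed ONHs had 620, 1253, 597, 732 and 973, against 193, 303, 199, 353 and 433 in contralateral ONHs. The groups were apart again (log2 1.51, SE 0.18, adjusted p 7.43e-06). The much dimmer second probe set of Tnfrsf9 rose at 1 day (2.18, SE 0.23) and 3 days (1.10, SE 0.23) and was not called at 3 weeks (0.38, SE 0.23, adjusted p 0.26).

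Markers of several cell types, resident ones included, changed at 1 day as well. Of 5 neutrophil markers tested 3 rose, and the summed intensity of the 9 on the array was 9754 to 19260 in crushed and 721 to 1094 in contralateral ONHs, where Mmp8 lay at or under 20 on every array. Of 13 markers of microglia and macrophages 5 rose and 2 fell, with sums of 26230 to 42330 in crushed and 29350 to 33940 in contralateral ONHs. Of 8 oligodendrocyte markers 4 fell (30770 to 47330 in crushed and 56000 to 61580 in contralateral ONHs). The part of these cells in the changes of the family was not tested.

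The receptors of TNF differed from each other. Tnfrsf1a carries a death domain and is widely expressed, and Tnfrsf1b, which lacks it, is known from microglia, endothelium and leukocytes. Tnfrsf1b had 2139, 1752, 1393, 3182 and 2345 in crushed ONHs at 1 week, against 631, 697, 369, 594 and 641 in contralateral ONHs. Every crushed sample was above every contralateral one (3.63-fold, log2 1.86, SE 0.15, adjusted p 7.96e-09). Crushed means were 1655, 1890 and 2162 at 1 day, 3 days and 1 week. Contralateral means were 926, 885 and 586.5, and the naive mean was 878.5. The larger ratio at 1 week thus comes in part from a lower contralateral level. The groups were also apart at 1 day (0.80, SE 0.15) and at 3 days (1.08, SE 0.15), when it was called. Without replicate 5 the value at 3 days was 0.96, under the limit, and it was 0.97 after quantile normalization and 0.94 after a shift of the arrays to a common median. Its dimmer probe set gave 0.32 (SE 0.21, adjusted p 0.23) at 1 week and was called at no time.

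Tnfrsf1a was higher in 5 of 5 pairs at each time from 1 day to 3 weeks, with 0.55 (SE 0.11), 0.44 (SE 0.11), 0.42 (SE 0.11) and 0.50 (SE 0.11). All of these passed the adjusted p (the highest 3.39e-03) and none reached 2-fold. At 1 day its mean was 3563 ± 296 in crushed and 2424 ± 172 in contralateral ONHs (SD, n = 5 each), without overlap.

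**Figure D4:**
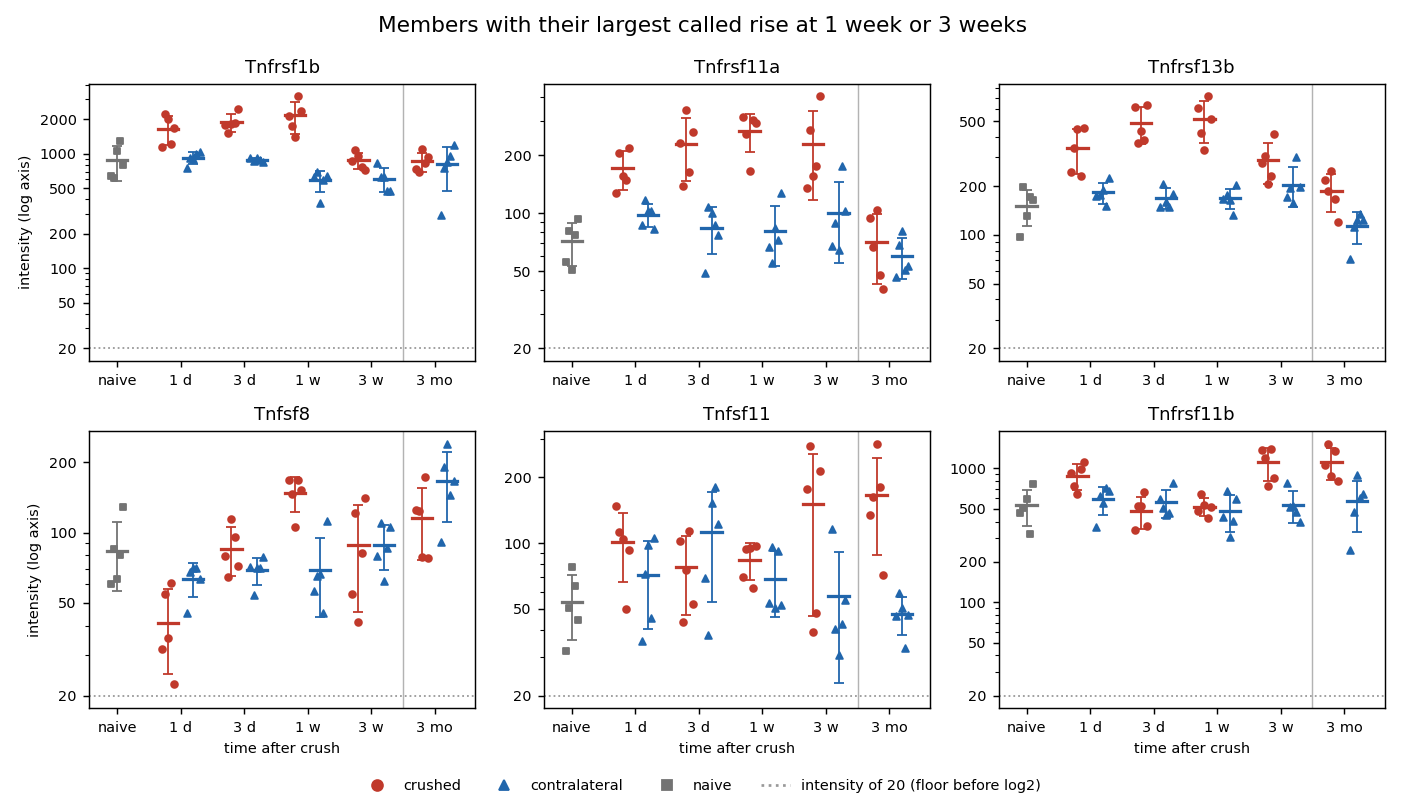
Intensity (log axis) of the 6 members whose largest called rise was at 1 week or 3 weeks, in naive ONHs and in crushed and contralateral ONHs by time after crush. Points are samples, bars are mean ± SD (n = 5), the dotted line is the floor of 20 and the vertical line separates the second batch; Tnfrsf1b and Tnfrsf13b separate at 1 week, whereas Tnfsf11 overlaps at 3 weeks.

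In the RANK system, which governs osteoclasts and lymph node formation, the signalling receptor Tnfrsf11a rose at 3 times. At 1 week it had 314, 258, 166, 304 and 295 in crushed ONHs, against 66.8, 55.2, 84.0, 72.8 and 128 in contralateral ONHs. There was no overlap (3.35-fold, log2 1.74, SE 0.27, adjusted p 2.86e-05). It had 1.41 (SE 0.27) at 3 days and 1.17 (SE 0.27) at 3 weeks, where the groups overlapped and the value without replicate 5 was 0.97. A dimmer probe set of Tnfrsf11a was called earlier, at 1 day (2.06, SE 0.24), and not at 3 weeks (0.83, SE 0.24).

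Tnfrsf11b, osteoprotegerin, a soluble decoy for RANKL, rose at 3 weeks. It had 1375, 1196, 740, 1402 and 852 in crushed ONHs, against 776, 515, 523, 469 and 398 in contralateral ONHs. A single contralateral sample was above the lowest crushed one (2.06-fold, log2 1.04, SE 0.21, adjusted p 1.05e-03), and without replicate 4 the value was 0.91. Its dimmer probe set was called at 1 day (1.06, SE 0.21) and had 0.85 (SE 0.21) at 3 weeks. Tnfsf11, Tnfrsf11a and Tnfrsf11b were thus all called at 3 weeks on their brightest probe sets.

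The receptors of BAFF and APRIL, which serve B cells and plasma cells, did not move together. Tnfrsf13b (TACI) had 609, 425, 334, 715 and 515 in crushed ONHs at 1 week, against 167, 176, 164, 133 and 202 in contralateral ONHs. There was no overlap (3.01-fold, log2 1.59, SE 0.21, adjusted p 3.71e-06), and at 3 days it rose by 1.51 (SE 0.21).

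Tnfrsf13c, the BAFF receptor, had 71.6, 110, 109, 84.3 and 84.9 in crushed ONHs at 3 weeks, against 242, 218, 216, 244 and 282 in contralateral ONHs. Every crushed sample was lower (log2 -1.40, SE 0.19, adjusted p 3.32e-05). It was also lower in 5 of 5 pairs at 1 day (-0.96, SE 0.19), 3 days (-0.38, SE 0.19) and 1 week (-0.73, SE 0.19), of which 1 day and 1 week passed the adjusted p without reaching 2-fold.

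Tnfrsf17 (BCMA), known from plasma cells, was near the floor. It was called lower at 3 days, with 29.5, 38.9, 12.8, 18.7 and 44.4 in crushed ONHs and 83.6, 77.4, 85.7, 103 and 68.8 in contralateral ONHs. The groups did not overlap (log2 -1.52, SE 0.39, adjusted p 3.72e-03). With a floor of 50 the change was -0.73, which ends the call, and contralateral ONHs ranged between 6.29 and 100 at 1 day. Of the 3 B cell markers tested, 0 were called at 1 day or 3 weeks in either direction (1 was higher at an unadjusted p under 0.05 at each, by limma) and 1 rose at 3 days and at 1 week. Pax5 lay at or under 20 on every array of each condition, naive included, except contralateral ONHs at 3 weeks. The summed intensity of the 5 B cell markers at 3 weeks was 285 to 340 in crushed and 209 to 342 in contralateral ONHs.

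At 3 days 3 of 8 endothelial markers rose, with summed intensities of 18210 to 28990 in crushed and 12480 to 17080 in contralateral ONHs. At the same time 7 of 13 markers of microglia and macrophages rose (45610 to 58310 in crushed and 26370 to 33290 in contralateral ONHs) and 3 of 5 tested neutrophil markers (1864 to 11410 and 599 to 848). Their part in the rises at 3 days, that of Tnfrsf1b included, was not tested.

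At 1 week 8 of 13 markers of microglia and macrophages rose, with sums of 45080 to 73420 in crushed and 27690 to 35000 in contralateral ONHs. At the same time 4 of 5 tested neutrophil markers rose (sums of 1698 to 11210 and 588 to 869) and 4 of 10 markers of T and NK cells (1850 to 2670 and 1128 to 1453). At 3 weeks the counts were 4 of 13 for microglia and macrophages (38830 to 51120 in crushed and 23700 to 28980 in contralateral ONHs) and 2 of 10 for T and NK cells (1626 to 2721 and 1037 to 1503). Their part in the rises of Tnfrsf1b, Tnfrsf11a, Tnfrsf13b, Tnfrsf9 and the later ligands was not tested.

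Tnfrsf19 (TROY), a receptor of neural tissue that can pair with the Nogo receptor, fell at 1 day. Crushed ONHs had 1298, 714, 695, 678 and 682, against 1901, 1740, 1671, 2174 and 1795 in contralateral ONHs. All crushed samples were lower and 4 of them lay close together (log2 -1.24, SE 0.13, adjusted p 9.76e-08). At 3 days the means were 1825 ± 295 in crushed and 1854 ± 205 in contralateral ONHs (SD, n = 5 each). The 2 dimmer probe sets had -0.76 (SE 0.26) and -0.50 (SE 0.25) at 1 day and were not called. At 1 day 3 of 10 astrocyte markers fell, with sums of 37050 to 50680 in crushed and 67000 to 73370 in contralateral ONHs. Of all probe sets 7.44% fell at that time. So did 4 of 8 oligodendrocyte markers and 1 of 8 markers of meningeal fibroblasts. The fibroblast sums were 32570 to 41380 in crushed and 49150 to 60390 in contralateral ONHs. The part of these cells in the fall of Tnfrsf19 was not tested.

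**Figure D5:**
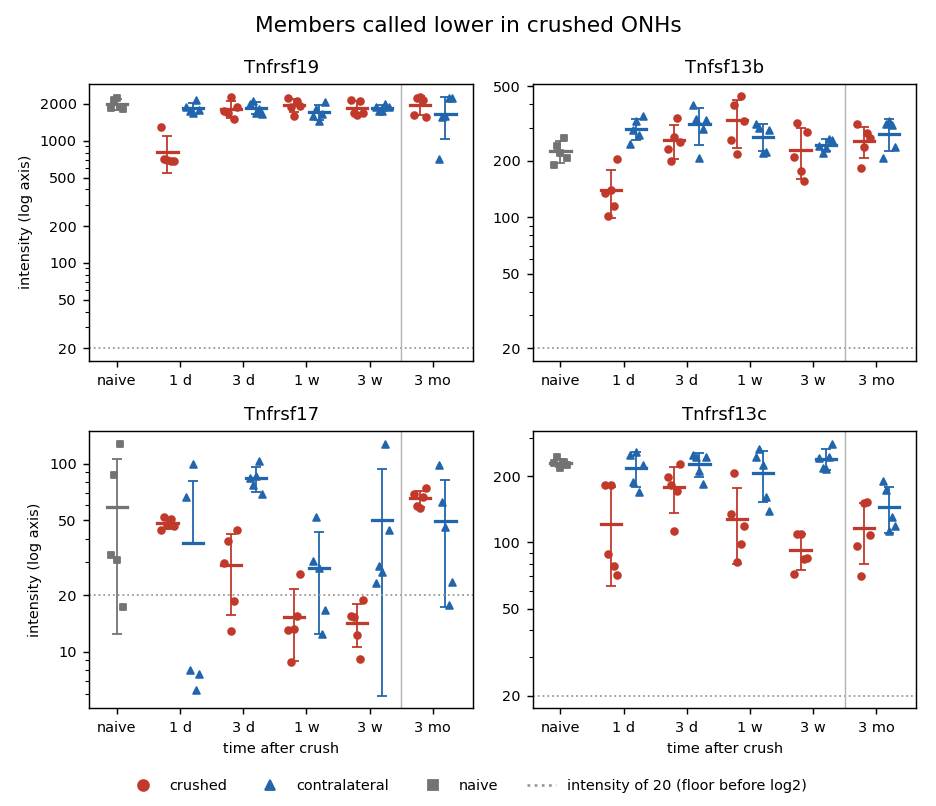
Intensity (log axis) of the 4 members called lower in crushed ONHs, in naive ONHs and in crushed and contralateral ONHs by time after crush. Points are samples, bars are mean ± SD (n = 5; no lower bar where it would pass under 1), the dotted line is the floor of 20 and the vertical line separates the second batch; Tnfrsf19 is low only at 1 day among the crushed groups, and many values of Tnfrsf17 lie under 20.

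The other receptors were not called. Tnfrsf21 (DR6), a death receptor of neurons and glia, had its change of largest size at 3 weeks (-0.54, SE 0.068, adjusted p 1.44e-05), with 2857 ± 432 in crushed and 4140 ± 437 in contralateral ONHs (SD, n = 5 each) and no overlap. Its other probe set had 0.07 (SE 0.23) there. Tnfrsf14 (HVEM), which binds Tnfsf14, had -0.91 (SE 0.26, adjusted p 0.015) at 3 weeks. It passed the 2-fold limit without replicate 2 (-1.003) and without replicate 5 (-1.14). Tnfrsf18 (GITR), a receptor of regulatory T cells, had 0.74 (SE 0.26, adjusted p 0.030) at 1 week.

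Tnfrsf25, Tnfrsf8 and Tnfrsf4, all known from T cells, reached an intensity of 50 on 1, 2 and 11 of the 55 arrays. Their highest values were 73.9, 65.3 and 107. Tnfrsf4 could be tested at 3 months alone (-0.23, SE 0.34), and with a floor of 50 that value turned to 0.02. Dimness therefore limits what can be said of these 3 receptors.

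Ligands were set beside their known receptors. Tnfsf9 and Tnfrsf9 were both called at 1 day, when their log2 fold changes were 2.84 and 1.87. At 3 weeks Tnfrsf9 had 1.51 while Tnfsf9 had 0.43 and was not called. Tnf was called at 1 day (1.60), when Tnfrsf1b had 0.80, and Tnfrsf1b was called at 3 days and 1 week, when Tnf had 0.14 and 0.39. Tnfsf14 was called at 1 day and 3 days, when Tnfrsf14 had -0.36 and -0.10 and the lymphotoxin beta receptor (Ltbr) 0.49 and 0.38. The values of Ltbr passed the adjusted p (2.80e-03 and 0.021) without reaching 2-fold.

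Whether the effect of crush differed between times was tested directly as the difference of the log2 fold changes. A negative difference means a lower ratio of crushed over contralateral at the later time, whatever its sign before. From 1 day to 3 days the difference was called negative for 5 members (1.03% of all probe sets) and positive for 1 (3.9%). The 5 were Tnfrsf17 (-1.98, SE 0.55), Tnfsf14 (-1.68, SE 0.39), Tnfrsf12a (-1.67, SE 0.28), Tnfsf9 (-1.62, SE 0.33) and Tnf (-1.46, SE 0.37). Tnfrsf17 was not called at 1 day (0.46) and was lower in crushed ONHs at 3 days. Tnfrsf19, which had fallen at 1 day, differed by 1.21 (SE 0.18) and was near 0 at 3 days (-0.03). The ligands that rose at 1 day were thus all called as lower in effect at 3 days, with the highest adjusted p 0.011 for Tnf. Leaving out replicate 3 moved Tnf to an adjusted p of 0.054 and Tnfsf14 to 0.058, leaving out replicate 5 moved Tnfsf14 to 0.054, and Tnfrsf17 was lost without replicate 2, 4 or 5 (adjusted p 0.063, 0.082 and 0.061) and with a floor of 50 (-0.46). With a floor of 1 Tnfsf14 had -0.70 (adjusted p 0.35).

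From 3 days to 1 week 2 members had a lower effect (2.04%) and 0 a higher one (1.08%), with 3 higher at an unadjusted p under 0.05 by limma. They were Tnfsf9 (-1.38, SE 0.33) and Tnfrsf10b (-1.01, SE 0.25). Tnfsf9 was lost without replicate 1, 2 or 3 (adjusted p 0.057, 0.063 and 0.058) and Tnfrsf10b without replicate 1, 3 or 5 (0.11, 0.072 and 0.056). Quantile normalization and a common median left Tnfrsf10b at -0.97 and -0.94, under the 2-fold limit.

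From 1 week to 3 weeks 5 members had a lower effect (3.1%) and 1 a higher one (1.4%). All 5 that were lower had risen at 1 week: Tnfrsf22 (-2.25, SE 0.29), Tnfrsf23 (-1.66, SE 0.29), Tnfrsf1b (-1.30, SE 0.21), Tnfsf8 (-1.27, SE 0.31) and Tnfrsf13b (-1.10, SE 0.29). Tnfrsf9 was higher by 1.495 (SE 0.25, adjusted p 7.04e-04). Tnfsf8 and Tnfrsf13b were lost without replicate 1 (adjusted p 0.092 and 0.060) or replicate 4 (0.057 and 0.13), and a floor of 50 left Tnfrsf23 at -0.47.

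Between 1 day and 3 weeks 8 members had a lower effect (6%) and 1, Tnfrsf19, a higher one (6.8%). Among them were Tnfrsf22 (-3.75, SE 0.29), Tnfrsf23 (-3.50, SE 0.29), Tnfsf14 (-3.05, SE 0.39) and Tnfsf9 (-2.41, SE 0.33). With a floor of 50 Tnfrsf23 and Tnfsf14 had -2.33 and -1.78, and remained called. Tnfrsf9, which rose at both times, was not among them. Tnf (-1.04) was lost without replicate 1, 4 or 5 (adjusted p 0.083, 0.064 and 0.21) and Tnfrsf17 (-1.45) without replicate 2, 4 or 5 (0.12, 0.28 and 0.16) and with a floor of 50 (-0.005). These contrasts share arrays and are not independent of each other.

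At 3 months, in the second batch, 0 of 22 members tested were called (0.207% of all probe sets rose and 0.255% fell), while limma gave 5 higher members and 2 lower ones before adjustment (p under 0.05). Tnfrsf9 had 190, 356, 764, 269 and 145 in crushed ONHs, against 78.9, 28.8, 110, 68.7 and 112 in contralateral ONHs. The groups did not overlap, and the log2 fold change was 2.01 (SE 0.46, adjusted p 0.13). Tnfsf11 had 134, 163, 285, 180 and 71.1 in crushed and 46.4, 59.2, 50.6, 33.2 and 47.1 in contralateral ONHs, again without overlap (log2 1.70, SE 0.32, adjusted p 0.080). Tnfrsf11b had 1.06 (SE 0.33, adjusted p 0.23). Without the pairing of eyes 1 member was called at 3 months, and by criteria on linear values 1, Tnfsf11. Of 9 markers of T and NK cells tested 1 rose, with sums of 2413 to 3695 in crushed and 1928 to 2320 in contralateral ONHs. Of 4 neutrophil markers tested 1 rose as well (927 to 2179 in crushed and 499 to 845.5 in contralateral ONHs). Of 12 markers of microglia and macrophages 0 were called, and 6 were higher at an unadjusted p under 0.05 in limma. The part of these cells in the values of the members was not tested.

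Contralateral ONHs were compared with naive ones to see whether the uninjured eye changed. The age of the naive mice when tissue was taken is not given. Age and an effect of the crush on the other eye can therefore not be told apart here. Of 22 members tested, 0 were called at 1 day (0% of all probe sets) and 0 at 3 days (0%). Before adjustment, limma gave p under 0.05 for 1 higher member at 1 day and 2 at 3 days, and for 0 lower ones. At 1 week 0 were called higher (0.0589%) or lower (0.0536%), with 3 lower at an unadjusted p under 0.05. At 3 weeks 1 was called higher (0.321%) and 0 lower (0.37%), with 3 lower at an unadjusted p under 0.05.

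The member called was Tnfrsf9 at 3 weeks, with 193, 303, 199, 353 and 433 in contralateral ONHs against 127, 113, 127, 154 and 197 in naive ONHs. The groups overlapped by a single sample on each side, and the log2 fold change was 1.00 (SE 0.19, adjusted p 5.16e-03), at the limit of 2-fold. It was lost without replicate 2 (0.90), 4 (0.95) or 5 (0.97). Tnfrsf12a at 1 week was lower in contralateral than in naive ONHs by adjusted p but under 2-fold (-0.95, SE 0.17, adjusted p 9.12e-03), with 551 ± 101 in contralateral and 1075 ± 246 in naive ONHs (SD, n = 5 each). Its values did not overlap. Tnfrsf10b at 3 weeks had -0.60 (SE 0.18, adjusted p 0.037).

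Members of the superfamily with other names and the genes downstream were counted from lists. Of 3 other ligands tested, 1 fell at 1 day, Eda (-1.05, SE 0.17), and of 5 other receptors 1 rose at 1 day, Edar (1.27, SE 0.30), both of ectodermal development. Of all probe sets 7.44% fell and 7.02% rose at 1 day. Ngfr, the low-affinity neurotrophin receptor, fell at 3 days (-1.45, SE 0.22) and at 1 week (-1.07, SE 0.22), when 2.2% and 3.53% of all probe sets fell. At 3 weeks 0 of these 8 genes were called, against 2.36% of all probe sets higher and 1.75% lower (before adjustment, limma gave p under 0.05 for 1 higher and 1 lower receptor). With so few genes, these counts cannot be told from the shares of all probe sets.

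Of 20 adaptors and death signalling genes tested, 1 rose at 1 day and at 3 days, 3 rose at 1 week and 0 fell at these times (before adjustment, limma gave p under 0.05 for 3, 3 and 1 lower genes). The share at 1 day and 3 days was under the 7.02% and 6.6% of all probe sets, and at 1 week that of all was 6.21%. At 1 week they were Ripk3, the kinase of necroptosis, with 1.89 (SE 0.21), Birc3, an inhibitor of apoptosis that NF-kB induces, with 1.11 (SE 0.20), and Casp8, the caspase that death receptors activate, with 1.07 (SE 0.095). Ripk3 was the gene that rose at 1 day (2.68, SE 0.21). The median of the list was 0.09 at 1 day and 0.11 at 1 week, against -0.03 and 0.02 over all probe sets.

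Of 4 NF-kB subunits tested, Rel (1.33, SE 0.23) and Nfkb2 (1.05, SE 0.14) rose at 1 day, when 7.02% of all probe sets rose. The median of the list was 0.82, against -0.03 over all probe sets. Of 16 tested genes of the NF-kB and TNF response, 4 rose and 1 fell at 1 day, against 7.02% and 7.44% of all probe sets, with a median of 0.51, against -0.03. The largest changes were rises of Tnfaip2 (2.12, SE 0.23), a gene named for its induction by TNF, Bcl3 (1.85, SE 0.21), a nuclear IkB-like cofactor, and Ptgs2 (1.13, SE 0.11), the inducible cyclooxygenase. The gene that fell was Tnfaip6 (-1.13, SE 0.16), a hyaluronan-binding protein of inflammation. Of 4 genes that shed TNF family proteins or inhibit shedding, 0 were called at any time, and before adjustment limma gave p under 0.05 at 1 day for 2 higher genes and 1 lower one.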

How the data were processed

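Optic nerve heads (2 pooled per sample) were measured on Affymetrix mouse arrays, 45 in a first batch and 10, those of 3 months, in a second. The values deposited by the authors are linear intensities of 22690 probe sets from DChip, which scales arrays by an invariant set and models perfect match minus mismatch signals. Here, 64 control probe sets were left out and intensities were floored at 20 (9.91% of values) and put on the log2 scale.

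Probe sets at 50 or above on at least 5 arrays of a model entered limma 3.58.1 (R 4.3.3) with a mean-variance trend and Benjamini-Hochberg adjustment over all of them, 19313 for 1 day to 3 weeks, 18823 for 3 months and 18669 against naive. Crushed and contralateral samples of the same time and replicate number were taken as the left and right eyes of the same mice. The labels do not state which samples form a pair. The pairs entered 1 model of 40 arrays for the first 4 times and another for 3 months. The correlation of paired deviations from the group means lay between -0.446 and 0.52, and it was under 0 in every pair at 3 months. These correlations do not show that the replicate numbers match the mice. Naive arrays were compared without pairing. Calls needed a 2-fold difference and an adjusted p under 0.05. The number of arrays limits the precision.

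Each sample pools 2 ONHs, so p-values measure the spread between pools. Genes were named from the platform annotation, in which 20380 probe sets have 1 gene, 691 several and 1555 none. On simulated data, limma called 94% of probe sets changed by a log2 of 1.5 at 1 day (19313 probe sets) and 71% at 3 months (18823). Alternatives were other floors, no filter, no trend, no pairing, quantile normalization, a common median, other probe sets, single times, each replicate left out, and the 3 criteria of the study's methods on linear values (2-fold by the 90% confidence bound, a difference of 100 and p of 0.05). Named genes of the other lists were up to 3 called genes of largest change at the time when most of the list was called. The members and lists were chosen with earlier results of these data known. Promoters were RefSeq windows searched with Python 3.11.15, and figures were drawn with matplotlib 3.10.9.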

Additional observations from a re-analysis of the deposited data

Results flagged for a closer look

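In 6 of 58 groups of 5 samples examined, 1 sample was flagged as apart from the others on the floored log2 scale. For groups without floored values, chance alone gives about 1 in 20. Tnf in crushed ONHs at 1 day had 150.5 in replicate 3, against 124.6 to 126.8 in the others. Tnfrsf19 in crushed ONHs at 1 day had 1298 in replicate 1, against 677.7 to 713.6. Tnfrsf1b in contralateral ONHs at 1 week had 369.2 in replicate 3, against 593.9 to 697. The other 3 were near or under the floor of 20. They were Tnfrsf23 in contralateral ONHs with 21.4 in replicate 1 at 1 day and 29.35 in replicate 5 at 3 days, and Tnfsf14 in contralateral ONHs with 22.93 in replicate 1 at 3 days. For Tnfrsf23 at 1 day and Tnfsf14 at 3 days all the other samples had been set to 20. Any value above 20 would be flagged there, so that these flags carry no information.

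The effect of crush on 13 members differed between times by the test of the difference itself, on the log2 scale. From 1 day to 3 days it differed by -1.98 for Tnfrsf17, -1.68 for Tnfsf14, -1.67 for Tnfrsf12a, -1.62 for Tnfsf9, -1.46 for Tnf and 1.21 for Tnfrsf19. From 3 days to 1 week the differences were -1.38 for Tnfsf9 and -1.01 for Tnfrsf10b. From 1 week to 3 weeks they were -2.25 for Tnfrsf22, -1.66 for Tnfrsf23, -1.30 for Tnfrsf1b, -1.27 for Tnfsf8, -1.10 for Tnfrsf13b and 1.495 for Tnfrsf9. From 1 day to 3 weeks they were -3.75 for Tnfrsf22, -3.50 for Tnfrsf23, -3.05 for Tnfsf14, -2.41 for Tnfsf9, -2.24 for Tnfrsf12a, -1.45 for Tnfrsf17, -1.38 for Tnfrsf10b, -1.04 for Tnf and 1.22 for Tnfrsf19.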

How the results depend on the processing

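Of the counts of members called, 323 comparisons with an alternative stayed within 1.5 times the count and 33 moved, and of single values 723 kept direction and side of the threshold, 62 lost the call, 3 gained one and 1 turned. By the 3 criteria of the methods 0 members were lower at 1 day, 3 were higher and 0 lower at 3 days, 0 were higher at 3 weeks and 1 at 3 months, and 0 were higher in contralateral than in naive ONHs at 3 weeks. A floor of 50 left 0 lower at 3 days and turned Tnfrsf4 at 3 months to 0.024. Quantile normalization and a common median each left 1 member with a lower effect from 3 days to 1 week, and quantile normalization left 0 higher in contralateral than in naive ONHs at 3 weeks. Without the replicate block, 1 member was higher at 3 months, while 10, 8, 6 and 4 of the 10, 8, 6 and 5 members called at the first 4 times kept their call. With each replicate left out in turn, the counts at 3 weeks were 2 to 4 higher and 1 to 2 lower. The effect was higher in 1 to 2 and lower in 3 to 8 members from 1 day to 3 days, lower in 0 to 4 from 3 days to 1 week, higher in 1 to 2 and lower in 3 to 5 from 1 week to 3 weeks, and higher in 1 to 2 from 1 day to 3 weeks. In contralateral against naive ONHs 0 to 1 were lower at 1 week and 0 to 1 higher at 3 weeks. In every such fit 10 of 10, 7 of 8, 5 of 6 and 2 of 5 members kept their call at the first 4 times. The cause was not tested. Members near the floor, such as Tnfsf14, Tnfrsf23 and Tnfrsf17, have changes that depend on it.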
